A study of Mus with 48 samples.

Results

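The genes described here encode 8 subunits of the GABA-A receptor: the alpha subunits Gabra2, Gabra3, Gabra4, Gabra5 and Gabra6, the delta subunit Gabrd and the gamma subunits Gabrg1 and Gabrg3. They were taken by symbol from the 23339 gene names used of 1 RNA-seq table, in which all 8 were found. The table holds FPKM, a fragment count scaled by transcript length and by the mapped fragments of the library. It covers the SN (substantia nigra), striatum, cortex and cerebellum of 12 female C57BL/6J mice, which were 8 weeks old when purchased. The MPTP + EX mice were injected with MPTP (a toxin that destroys dopaminergic neurons) together with probenecid and then ran on a treadmill for 12 weeks. The MPTP mice received MPTP and probenecid without the treadmill, and the saline mice were the controls. Each group held 4 mice, and the column names place the same 12 mice in all 4 regions, which gives 48 libraries. All exercised mice had received MPTP, so exercise could be compared only among MPTP-treated mice.

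GABA-A receptors are chloride channels that open when GABA binds, and each is assembled from several subunits, usually alpha, beta and gamma. Receptors that contain Gabra2 or Gabra3 gather mainly at synapses. Receptors that contain Gabrd, often with Gabra4 in the forebrain or Gabra6 in cerebellar granule cells, lie mostly outside synapses and carry a lasting (tonic) inhibition, and Gabra5 receptors do so in the hippocampus. Striatal medium spiny neurons, nigral GABAergic neurons and cerebellar granule and Purkinje cells all use these receptors. Dopaminergic neurons of the SN are known for Gabra3. Gabrg1 is an uncommon gamma subunit that is also made by some astrocytes and Bergmann glia, and Gabrg3 is a further uncommon gamma subunit.

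The tissue labels were checked against marker genes before the subunits were read. Summed over 10 genes of dopaminergic neurons, the SN libraries held 229.8 to 356 FPKM in MPTP + EX mice and 262 to 329 FPKM in MPTP mice, against 772 to 1613 FPKM in saline mice. Markers of medium spiny neurons summed to 2913 to 4442 FPKM in the striatum (without the library of mouse E29), those of granule cells to 1304 to 1577 FPKM in the cerebellum and those of cortical excitatory neurons to 2342 to 2907 FPKM in the cortex. The striatum library of mouse E29 (MPTP + EX) stood apart from the others. Its FPKM summed to 621093, against 344700 to 403520 in the other 47 libraries, and 11595 genes were above 1 FPKM in it, against 12809 to 13593. Its median correlation with the striatum libraries was 0.896, against 0.9904 to 0.9954 for the other libraries within their regions. It is therefore given apart and enters no comparison unless stated.

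In the E29 striatum library, 6 of the 8 subunits lay below all of the other 11 striatum libraries, Gabrd lay above them all and Gabra6 lay within their range. Gabra2 was at 0.549 FPKM in it, against 18.6 to 25.4 FPKM in the other striatum libraries. Gabrg3 was at 0.205 FPKM, against 4.14 to 6.42 FPKM, and Gabrg1 at 1.48 FPKM, against 5.09 to 7.13 FPKM. These 3 genes were thus far lower in a library whose Gabrd stood at 180.5 FPKM, against 48.6 to 65.3 FPKM. Gabra4 was at 9.26 FPKM (27.9 to 38.9 in the others), Gabra3 at 5.84 FPKM (11.2 to 17.8) and Gabra5 at 4.24 FPKM (6.54 to 10.9). Gabra6 was listed at 0 in it, against 0 to 1.30 FPKM in the others. The nuclear RNA Malat1 was at 17.5 FPKM in this library and at 148 to 363 FPKM in the other 47 libraries, and what sets the library apart was not tested.

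The saline mice gave the regional levels without toxin or exercise. Region pairs were tested with limma on log2(FPKM + 1) over the 16 saline libraries, with Benjamini-Hochberg adjusted p over 13419 genes and a call at an adjusted p under 0.05. Fold changes on this scale understate the change of low genes. Of the 8 subunits, 6 differed between the SN and the striatum (57.6% of all genes tested), 5 between the SN and the cortex (59.5%) and 7 between the SN and the cerebellum (66.2%). The cerebellum differed from the cortex in 7 (66.7%) and from the striatum in 7 (64.8%), and the striatum differed from the cortex in 4 (35.4%). Regional differences were thus frequent among all genes, and the counts for the subunits were not far from that background. In bulk tissue, fewer cells of a type and less RNA per cell cannot be told apart.

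Gabra6 and Gabrd had the largest log2 differences between regions among the 8 subunits. Gabra6, the granule cell alpha subunit, was at 0.0322, 5.27, 2.76 and 6.25 FPKM in the SN of saline mice S1 to S4 and at 238, 176, 190.2 and 181 FPKM in their cerebellum. It was at 0 to 0.522 FPKM in their striatum and 0.0497 to 1.21 FPKM in their cortex. The cerebellum thus lay far above every other region, with a log2 difference of 7.38 from the striatum (SE 0.44, adjusted p = 4.1e-10) and of 7.24 from the cortex (adjusted p = 7.0e-10). In the SN it was lower than in the cerebellum (log2 difference -5.75, adjusted p = 1.05e-08) and higher than in the striatum and cortex (1.63 and 1.49, adjusted p = 0.00468 and 0.00796), although saline mouse S1 was as low in the SN as the libraries of those regions. The SN libraries of saline mice S1 to S4 also held the granule cell gene Cbln3, at 0.251, 4.50, 1.48 and 8.09 FPKM. The part of granule cells in the SN level of Gabra6 was not tested.

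Gabrd, the delta subunit, was at 0.654, 3.55, 7.60 and 6.73 FPKM in the SN of saline mice S1 to S4, at 96.0, 82.4, 77.2 and 80.1 FPKM in the cerebellum, at 56.3, 55.7, 53.4 and 65.3 FPKM in the striatum and at 38.7, 40.9, 40.02 and 38.3 FPKM in the cortex. No library of one region overlapped with those of another. The SN was lower than each other region, by a log2 difference of -4.16 from the cerebellum (SE 0.34, adjusted p = 2.39e-08), -3.63 from the striatum and -3.10 from the cortex. The cerebellum was higher than the cortex (1.06, adjusted p = 0.0115), though not with a pseudocount of 0.1 (adjusted p = 0.0588). The differences of 0.53 between cerebellum and striatum and 0.53 between striatum and cortex did not pass (adjusted p = 0.182 and 0.245), but both pairs passed when the SN library of saline mouse S1, the lowest of all, was left out of the fit (adjusted p = 0.00452 and 0.00944).

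Gabra4, which joins Gabrd in forebrain receptors, was highest in the striatum, with 35.7, 28.6, 27.9 and 38.9 FPKM in saline mice S1 to S4. It was at 5.86 to 10.54 FPKM in the SN, 5.67 to 7.90 FPKM in the cerebellum and 17.2 to 19.3 FPKM in the cortex. The striatum and the cortex differed (log2 difference 0.80, SE 0.15, adjusted p = 0.000451), and so did the SN and the cortex (-1.03, adjusted p = 1.65e-05). The SN and the cerebellum, the 2 lowest regions, did not differ beyond their spread (0.32, adjusted p = 0.0636), although this pair passed without SN mouse S1 (0.47, adjusted p = 0.00377), without cerebellum mouse S2 (0.40, adjusted p = 0.0314) or with libraries scaled to a common median (0.35, adjusted p = 0.0424).

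Among the synaptic alpha subunits, Gabra3 had a distinct level in each region. It was at 19.8, 22.6, 20.8 and 21.2 FPKM in the SN of saline mice S1 to S4, at 3.82 to 7.72 FPKM in the cerebellum, at 12.6 to 17.5 FPKM in the striatum and at 27.7 to 30.1 FPKM in the cortex. All 6 region pairs passed the test, the closest being SN against striatum (log2 difference 0.43, SE 0.13, adjusted p = 0.0100) and SN against cortex (-0.43, adjusted p = 0.00987). Gabra2 averaged 19.2 ± 5.53 FPKM in the SN, 11.8 ± 1.06 in the cerebellum, 22.01 ± 2.22 in the striatum and 18.3 ± 1.55 in the cortex (SD, n = 4 each). Only the cerebellum, which was lower, was separated from the other regions by limma (adjusted p = 0.00125 against the SN, 8.47e-05 against the striatum and 0.00172 against the cortex), and the SN passed against the striatum only without mouse S4 (-0.36, adjusted p = 0.0314).

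Gabra5 averaged 11.3 ± 4.86 FPKM in the SN, 2.14 ± 1.37 in the cerebellum, 9.11 ± 1.87 in the striatum and 13.1 ± 0.80 in the cortex (SD, n = 4 each). The cerebellum was lower than the cortex by a log2 difference of -2.32 (SE 0.33, limma, adjusted p = 1.08e-05), and the SN, striatum and cortex did not differ beyond their spread (adjusted p = 0.256 to 0.588). The gamma subunits peaked in different regions. Gabrg1 was at 9.76, 9.79, 10.01 and 9.35 FPKM in the SN of saline mice S1 to S4, above all libraries of the other regions (2.97 to 3.95 FPKM in the cerebellum, 5.12 to 6.97 in the striatum and 3.70 to 4.79 in the cortex). Its log2 difference was 1.30 for SN against cerebellum (adjusted p = 7.56e-09), 0.66 against striatum and 1.08 against cortex, while cerebellum and cortex missed the threshold (-0.22, adjusted p = 0.0546). This last pair passed without cerebellum mouse S3, cortex mouse S3, cortex mouse S4 or striatum mouse S4 (adjusted p = 0.0220 to 0.0421). It also passed with libraries scaled to a common median (-0.34, adjusted p = 0.00297) and with a pseudocount of 0.1 (-0.27, adjusted p = 0.0470). Gabrg3 averaged 2.35 ± 0.64 FPKM in the SN, 0.454 ± 0.27 in the cerebellum, 5.13 ± 0.95 in the striatum and 2.61 ± 0.13 in the cortex, and only SN and cortex did not differ among its 6 pairs (-0.13, adjusted p = 0.486).

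**Figure D1:**
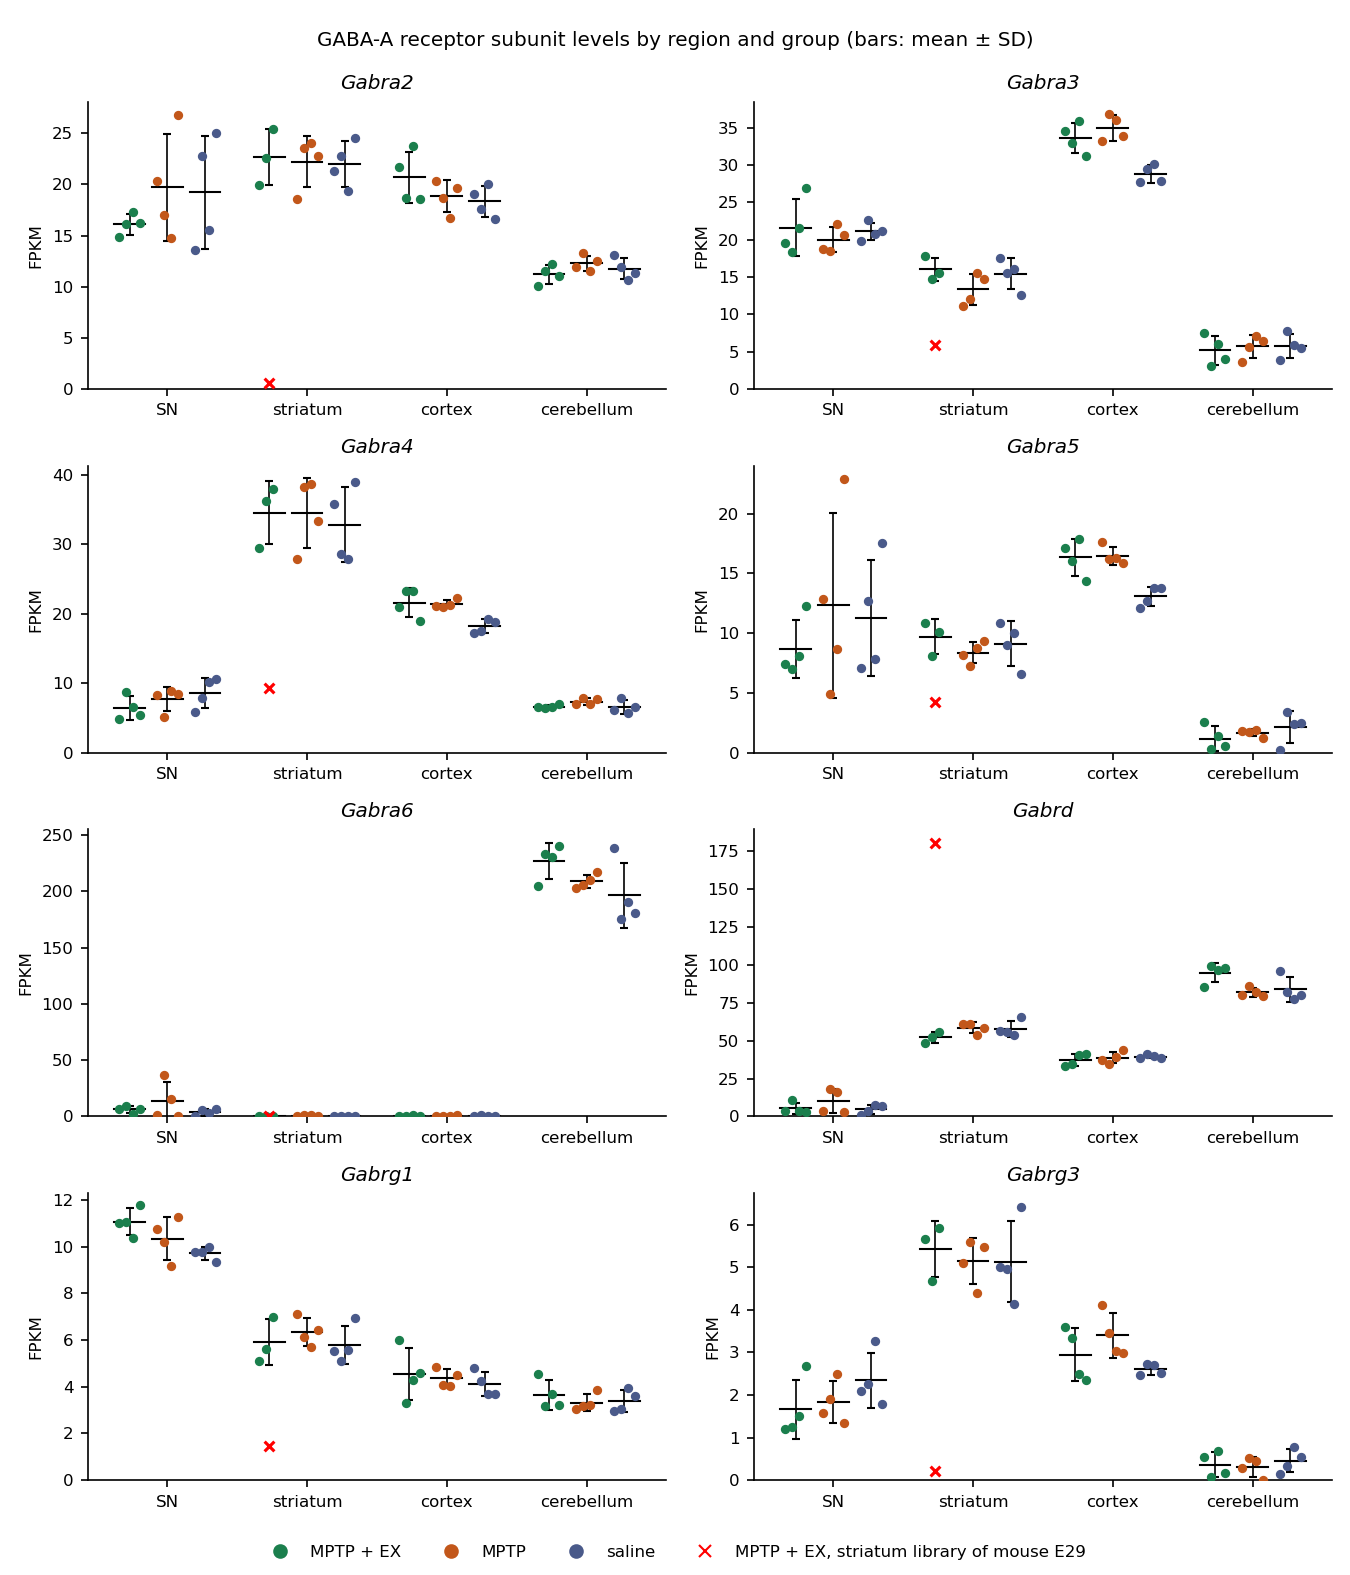
FPKM of the 8 subunits (1 panel each, linear axis from 0) by region, with 1 point per mouse, MPTP + EX left, MPTP in the middle and saline right, and bars for the mean ± SD. Gabra6 is at 176 to 241 FPKM in the cerebellum, Gabrd and Gabra4 are lower in the SN than in the striatum and cortex, and the red cross marks the E29 striatum library, left out of the means, with Gabrd at 180.5 FPKM.

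Because FPKM is scaled by transcript length, the levels of Gabra2, Gabra3, Gabra4, Gabra5 and Gabra6 were also set against each other, as shares of the sum of these 5. In saline mice Gabra6 held 88.0% ± 2.51 of the sum in the cerebellum and 5.02% ± 3.55 in the SN (SD, n = 4 each). Gabra4 held 41.1% ± 4.24 in the striatum, against 23.1% ± 0.96 in the cortex, and 13.7% ± 2.91 in the SN. Gabra3 took 34.3% ± 6.99 of the nigral, 19.5% ± 2.97 of the striatal and 36.5% ± 0.72 of the cortical sum. Gabra3 thus had the highest mean share of the 5 in the SN and cortex, Gabra4 in the striatum and Gabra6 in the cerebellum. In the E29 striatum library the shares were 46.6% for Gabra4, 29.4% for Gabra3, 21.3% for Gabra5 and 2.76% for Gabra2.

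**Figure D2:**
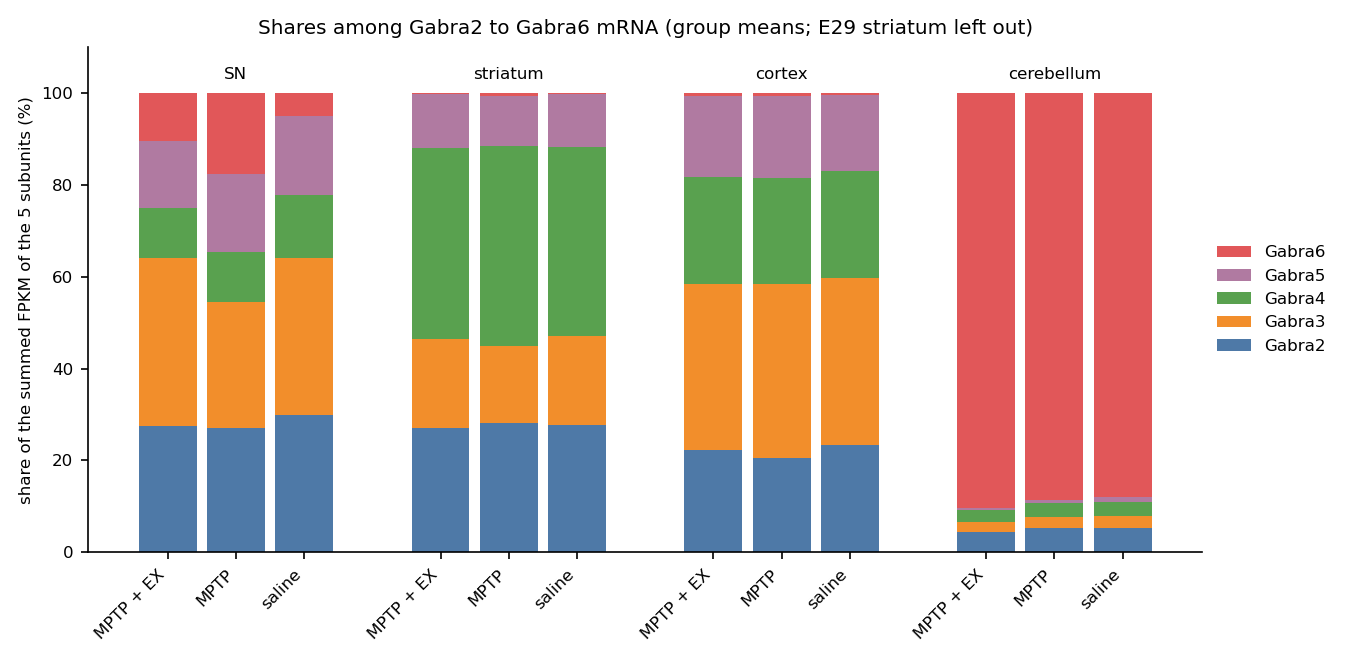
Stacked bars of the share (%) of Gabra2, Gabra3, Gabra4, Gabra5 and Gabra6 in their summed FPKM, as group means for MPTP + EX, MPTP and saline mice in each region, without the E29 striatum library. Gabra6 takes 88.0% to 90.3% in the cerebellum and Gabra4 takes 41.1% to 43.6% in the striatum, while Gabra3 takes 36.3% to 37.9% in the cortex.

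The main question of the design was whether MPTP and exercise changed these levels within each region. Each region was fitted with all 3 groups in limma, over genes with a mean above 1 FPKM. All 8 subunits passed this filter in the SN. Gabra6 did not pass in the striatum or cortex and Gabrg3 did not pass in the cerebellum, so 7 were tested there. No subunit passed an adjusted p under 0.05 in any of the 12 comparisons, of which the 2 against saline in a region share the same 4 saline mice. Differences at an unadjusted p under 0.05 are therefore given with their adjusted p, as values only.

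**Figure D3:**
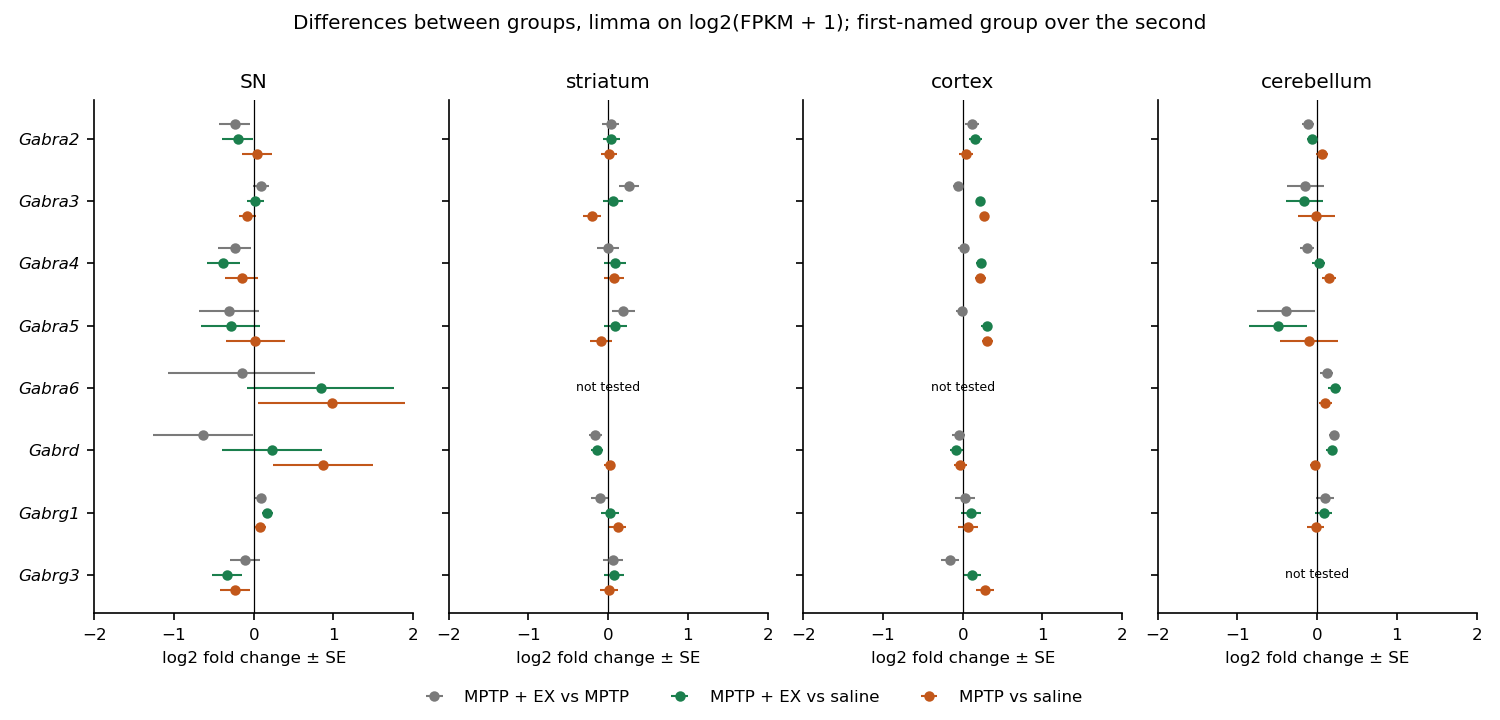
Log2 fold change ± SE (limma on log2(FPKM + 1)) of each subunit in the 4 regions, for MPTP + EX over MPTP (grey), MPTP + EX over saline (green) and MPTP over saline (orange), with the subunits that were too low marked as not tested. In the cortex Gabra3, Gabra4 and Gabra5 lie between 0.22 and 0.31 against saline in both MPTP groups and between -0.06 and 0.01 between these groups, and the SEs are widest for Gabra6 and Gabrd in the SN.

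In the cortex, 4 of the 7 subunits tested had higher values in MPTP than in saline mice at an unadjusted p under 0.05, without overlap between the groups, and none passed adjustment (limma, 0% of all genes). Of all genes, 20% were at an unadjusted p under 0.05 (9.53% higher in MPTP mice) and 14.5% were without overlap (7.89% higher). Gabra3 was at 33.2, 36.8, 36.0 and 33.8 FPKM in MPTP mice M16, M21, M23 and M6, against 27.7, 29.5, 30.1 and 27.8 FPKM in saline mice S1 to S4. The log2 difference was 0.27 (SE 0.056, adjusted p = 0.0679). Gabra5 was at 17.6, 16.2, 16.3 and 15.9 FPKM in MPTP mice, against 12.1, 12.7, 13.8 and 13.8 FPKM in saline mice (0.31, SE 0.069, adjusted p = 0.0679). In both genes the lowest MPTP mouse stood above the highest saline mouse.

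Gabra4 was at 21.2, 20.9, 21.2 and 22.3 FPKM in the cortex of MPTP mice, against 17.2, 17.5, 19.3 and 18.9 FPKM in saline mice (0.22, SE 0.067, adjusted p = 0.106). Gabrg3 was at 4.12, 3.46, 3.03 and 2.997 FPKM in MPTP mice, against 2.47, 2.73, 2.71 and 2.52 FPKM in saline mice (0.28, SE 0.11, adjusted p = 0.197). Neither gene overlapped between the groups. Gabrd, Gabra2 and Gabrg1 differed by -0.03, 0.04 and 0.07, less than their standard errors. The median over the 7 subunits was 0.22, against 0.00 over all 13049 genes, of which 49.0% were higher in MPTP mice.

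In the cortex of MPTP + EX mice the levels lay nearer to those of MPTP mice than to those of saline mice for Gabra3, Gabra4 and Gabra5. Gabra3 was at 34.5, 33.0, 35.9 and 31.2 FPKM in MPTP + EX mice E26 to E29, which was 0.22 above saline on the log2 scale (SE 0.056, adjusted p = 0.121), without overlap. Gabra5 was at 17.1, 16.1, 17.9 and 14.3 FPKM (0.30, adjusted p = 0.121), also without overlap, and Gabra4 at 20.9, 23.3, 23.2 and 18.9 FPKM (0.23, adjusted p = 0.138), where mouse E29 lay within the saline range. Thus 3 of 7 were at an unadjusted p under 0.05 against saline (17.1% of all genes), 2 were without overlap (7.93%) and none passed adjustment (0%). MPTP + EX and MPTP mice did not differ at an unadjusted p under 0.05 in any subunit (5.73% of all genes, 0% adjusted), with log2 differences of -0.06 for Gabra3, 0.01 for Gabra4 and -0.01 for Gabra5.

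These cortex results lay near the threshold and depended on which libraries shared the fit. With MPTP and saline mice alone, Gabra3, Gabra4 and Gabra5 passed (adjusted p = 0.0312, 0.0493 and 0.0312). Without the cortex library of mouse E29 Gabra3 and Gabra5 passed for MPTP (adjusted p = 0.0357 for each), and without that of mouse E28 they passed as well (0.0402 and 0.0445). With each of the 12 libraries left out in turn, the limma adjusted p rose to as much as 0.170 for Gabra3 and Gabra5 and 0.220 for Gabra4. Of these 12 fits, 2 called Gabra3, 2 called Gabra5 and 0 called Gabra4. Against saline, MPTP + EX mice without E29 passed for Gabra3, Gabra4 and Gabra5 (adjusted p = 0.0335, 0.0275 and 0.0189). This was 1 of 12 such fits for each gene. The share of all genes that passed in these refits is not given, and the 0% above belongs to the main fit. The calls in the refits therefore have no background beside them and are not read as a result about the subunits.

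The shares among these 5 alpha subunits in the cortex were 37.9% ± 1.99 for Gabra3 in MPTP mice and 36.5% ± 0.72 in saline mice, 23.2% ± 0.68 and 23.1% ± 0.96 for Gabra4, 17.9% ± 0.85 and 16.6% ± 0.84 for Gabra5, and 20.4% ± 1.54 and 23.3% ± 1.61 for Gabra2 (SD, n = 4 each). The Gabra2 share overlapped between the groups (18.5% to 22.05% and 21.5% to 25.1%), and differences in share were not tested. Gabrb2, a beta subunit whose gene lies next to Gabra6, averaged 38.5 ± 2.39 FPKM in MPTP mice and 33.4 ± 2.13 FPKM in saline mice (0.20, limma, adjusted p = 0.161), without overlap.

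**Figure D4:**
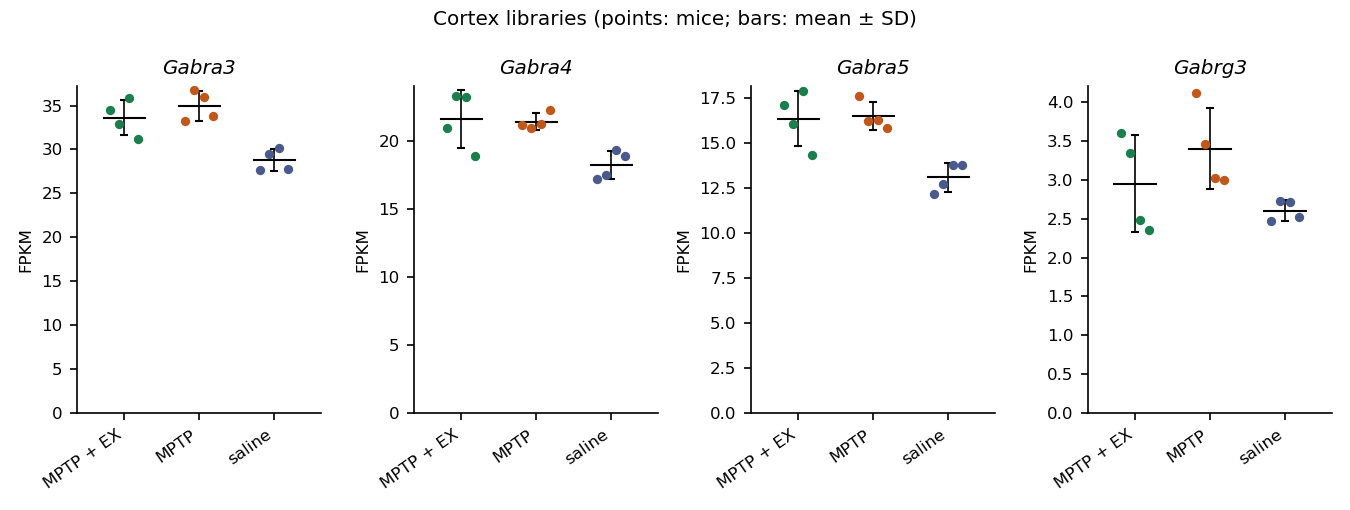
FPKM (linear axis from 0) of Gabra3, Gabra4, Gabra5 and Gabrg3 in the 12 cortex libraries, 1 point per mouse, with the mean ± SD. All MPTP mice lie above all saline mice in each panel (33.2 to 36.8 against 27.7 to 30.1 FPKM for Gabra3), and the MPTP + EX mice lie above the saline mice without overlap for Gabra3 and Gabra5.

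Some markers of non-neuronal cells also stood apart between the MPTP and saline cortex libraries. The summed level of 8 endothelial markers was 55.5 to 68.6 FPKM in MPTP + EX mice and 55.1 to 61.7 FPKM in MPTP mice, against 70.5 to 88.1 FPKM in saline mice (none of them at 0 in all libraries of a group). For 8 microglial markers the range was 157.7 to 191 FPKM in MPTP + EX mice and 151 to 159.8 FPKM in MPTP mice, against 171 to 204 FPKM in saline mice. For 8 choroid plexus markers it was 6.62 to 37.9 FPKM in MPTP + EX mice and 5.16 to 19.7 FPKM in MPTP mice, against 22.8 to 477 FPKM in saline mice. Of these 8 markers, 7 were under 1 FPKM in all MPTP libraries and 6 in all MPTP + EX libraries. Their mean log2 level was 0.488 to 0.868 in MPTP mice and 0.877 to 2.75 in saline mice. The microglial and choroid plexus sums of MPTP + EX mice overlapped with those of saline mice. Astrocyte markers (982 to 1041 FPKM in MPTP mice and 984 to 1260 FPKM in saline mice) and oligodendrocyte markers (1501 to 1677 and 1624 to 2051 FPKM) overlapped between both groups. The 10 markers of cortical excitatory neurons overlapped as well, with 2582 to 2907 FPKM in MPTP mice and 2342 to 2878 FPKM in saline mice.

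Across the 12 cortex libraries, Gabra5 went with the mean log2 level of the endothelial markers at r = -0.847 and rho = -0.790 (permutation p = 0.00028 and 0.0034, adjusted p = 0.0108 and 0.0742 over 348 relations of a subunit and a marker list). For Gabra3 the values were r = -0.797 and rho = -0.825 (permutation p = 0.00118 and 0.00141, adjusted p = 0.0275 and 0.0468). Without the 2 libraries farthest from the median of the markers, r was -0.774 for Gabra5 and -0.741 for Gabra3. The saline libraries are at one end of both measures and a single group of 4 is too small for its own correlation, and the part of these cells in the subunit differences was not tested.

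In the SN, the region with the lost dopaminergic markers, no subunit passed adjustment in MPTP against saline mice (limma, 0.638% of all genes) and none was at an unadjusted p under 0.05 (11.3%). Gabra3, the subunit known from dopaminergic neurons, was at 18.8, 18.4, 22.1 and 20.7 FPKM in MPTP mice, against 19.8, 22.6, 20.8 and 21.2 FPKM in saline mice. The difference was -0.08 (SE 0.10, adjusted p = 0.826), and the groups overlapped. Gabra2, Gabra4, Gabra5 and Gabrg1 differed by 0.04, -0.15, 0.02 and 0.08 and Gabrg3 by -0.24 (adjusted p = 0.662 to 0.9895).

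Gabra6 and Gabrd varied most among the SN libraries. Gabra6 was at 7.001, 9.63, 1.81 and 6.54 FPKM in MPTP + EX mice E26 to E29 and at 1.68, 37.1, 15.9 and 0.575 FPKM in MPTP mice M16, M21, M23 and M6, against 0.0322, 5.27, 2.76 and 6.25 FPKM in saline mice. Mouse M21 was thus highest and mouse M6 of the same group among the lowest. The difference between MPTP and saline mice was 0.98 with an SE of 0.92 (adjusted p = 0.715), and without mouse M21 it was 0.18. Gabrd was at 3.75, 11.0, 3.29 and 2.86 FPKM in MPTP + EX mice and at 3.66, 18.0, 16.1 and 2.68 FPKM in MPTP mice, against 0.654, 3.55, 7.60 and 6.73 FPKM in saline mice. Its difference was 0.87 (SE 0.63, adjusted p = 0.629) for MPTP against saline, and 0.49 without mouse M21 or 0.37 without saline mouse S1.

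The same SN libraries ranked alike in genes of cerebellar cells. The granule cell gene Cbln3 was at 0.251 to 54.5 FPKM in the SN, against 279 to 335 FPKM in the cerebellum. The 8 granule cell markers summed to 59.3 to 127 FPKM in MPTP + EX mice and 48.5 to 294.5 FPKM in MPTP mice, against 42.6 to 94.4 FPKM in saline mice. Gabra6 followed their mean log2 level across the 12 SN libraries with r = 0.936 and rho = 0.937 (permutation p = 1e-05, the smallest that 100000 permutations give, and 2e-05, adjusted p = 0.00174 and 0.00464, r = 0.881 without the 2 farthest libraries). For Gabrd the values were r = 0.857 and rho = 0.818 (permutation p = 0.00025 and 0.00172, adjusted p = 0.0108 and 0.0495, r = 0.736). Relative to the summed FPKM of Cbln3 and Fat2, Gabra6 stood at a median ratio of 0.636 in the SN (0.0565 to 1.69) and of 0.591 in the cerebellum (0.493 to 0.654). Gabrd stood at 0.684 (0.274 to 4.65) and 0.242 (0.211 to 0.274). Purkinje cell markers summed to 414 FPKM in SN mouse M21 and to 31.3 FPKM in saline mouse S1, the highest and lowest SN libraries. Saline mouse S3, highest of the saline mice in Gabrd (7.60 FPKM), had a mean log2 level of 2.30 in granule cell markers. In markers of thalamic neurons its mean log2 level was 4.44, against 3.03 to 4.14 in the rest of the SN libraries. The part of such cells in the Gabrd values was not tested.

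**Figure D5:**
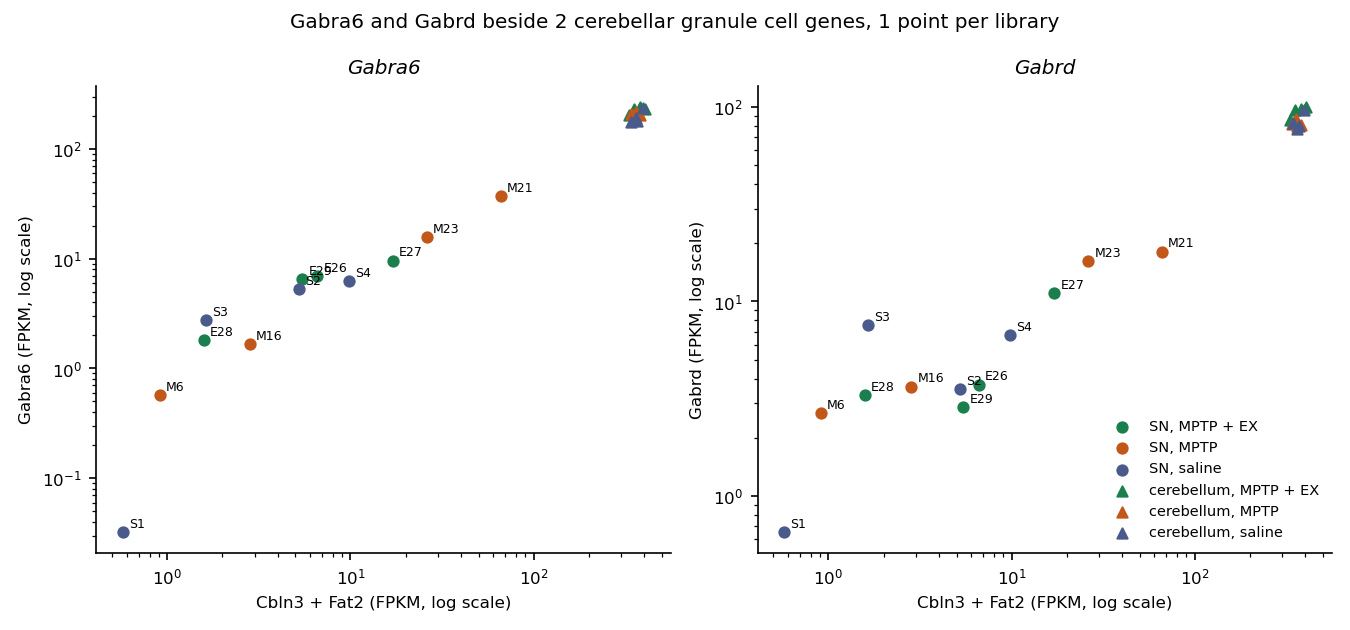
FPKM of Gabra6 (left) and Gabrd (right) against the summed FPKM of the granule cell genes Cbln3 and Fat2, both on log axes, with 1 point per SN library (circles, named by mouse) and cerebellum library (triangles). SN mouse M21, with 37.1 FPKM of Gabra6, is nearest to the cerebellum libraries (176 to 241 FPKM) and saline mouse S1 is lowest in both panels.

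With the granule cell score as a covariate, a fit added after the data were seen, the MPTP against saline difference in the SN became -0.32 for Gabra6 and 0.09 for Gabrd, neither past adjustment. Markers of cortical and hippocampal excitatory neurons varied between SN libraries as well, with 130.8 to 172.7 FPKM summed over 10 genes in MPTP + EX mice and 203 to 583 FPKM in MPTP mice, against 127 to 475 FPKM in saline mice. Gabra5, which is abundant in the hippocampus, was at 7.39, 7.04, 8.12 and 12.3 FPKM in MPTP + EX mice and at 12.8, 4.94, 8.70 and 22.9 FPKM in MPTP mice, against 7.09, 12.7, 7.85 and 17.6 FPKM in saline mice. Its MPTP + EX against MPTP difference was -0.31 (SE 0.37, adjusted p = 0.893), and 0.42 with the score of these neurons as a covariate.

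In the SN of MPTP + EX against saline mice, a comparison that combines toxin and exercise, none of the 8 subunits passed adjustment and 1 was at an unadjusted p under 0.05. Gabrg1 was at 11.0, 11.1, 10.4 and 11.8 FPKM in MPTP + EX mice, against 9.76, 9.79, 10.01 and 9.35 FPKM in saline mice. The difference was 0.17 (SE 0.068, adjusted p = 0.249), without overlap. The shares of all genes in MPTP + EX against saline were 15.8% at an unadjusted p under 0.05, 8.09% without overlap and 1.02% past adjustment. Against MPTP mice it was 0.09 (SE 0.068, adjusted p = 0.838), and none of the 8 subunits was at an unadjusted p under 0.05 in MPTP + EX against MPTP (7.3% of all genes, 0% adjusted). Summed astrocyte markers overlapped between the SN groups, at 1389 to 2105 FPKM in MPTP + EX mice and 1448 to 1748 FPKM in saline mice.

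In the striatum, the target of the lost dopaminergic fibres, none of 7 subunits passed adjustment or an unadjusted p under 0.05 in any comparison (limma, MPTP against saline 0.0227% and 10.1% of all genes, MPTP + EX against MPTP 0.0151% and 10.2%, MPTP + EX against saline 0.00756% and 10.2%). Gabra4 and Gabrd, the pair abundant in medium spiny neurons, were among them. Gabrd was at 48.6, 52.2 and 56.0 FPKM in MPTP + EX mice E26 to E28 and at 61.2, 61.2, 53.7 and 58.2 FPKM in MPTP mice, against 56.3, 55.7, 53.4 and 65.3 FPKM in saline mice. The MPTP + EX against MPTP difference was -0.16 (SE 0.076, adjusted p = 0.509), and it was 0.28 with the E29 library put back. Gabra4 averaged 34.5 ± 4.49 FPKM in MPTP + EX mice (n = 3), 34.5 ± 5.05 in MPTP mice and 32.8 ± 5.39 in saline mice (SD, n = 4 each).

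Gabra3 was at 17.8, 14.8 and 15.6 FPKM in the striatum of MPTP + EX mice and at 11.2, 12.0, 15.5 and 14.7 FPKM in MPTP mice, against 17.5, 15.6, 16.03 and 12.6 FPKM in saline mice. Its differences were 0.26 for MPTP + EX against MPTP (SE 0.12, adjusted p = 0.520) and -0.20 for MPTP against saline (SE 0.11, adjusted p = 0.561), and mice of the groups overlapped. It followed the markers of cortical excitatory neurons across the 11 striatum libraries with r = 0.927 and rho = 0.855 (permutation p = 0.00022 and 0.00142, adjusted p = 0.0108 and 0.0468, r = 0.875 without the 2 farthest). For markers of GABAergic interneurons the values were r = 0.956 and rho = 0.873 (permutation p = 6e-05 and 0.00091, adjusted p = 0.00696 and 0.0468, r = 0.898), and for those of medium spiny neurons r = -0.809 and rho = -0.882 (permutation p = 0.00265 and 0.00066, adjusted p = 0.0435 and 0.0459, r = -0.691). The excitatory markers summed to 1121 to 1714 FPKM in MPTP + EX mice and 1009 to 1280 FPKM in MPTP mice, against 1000.5 to 1704 FPKM in saline mice, and their part in the Gabra3 values was not tested.

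In the cerebellum none of 7 subunits passed adjustment. MPTP and saline mice had no subunit at an unadjusted p under 0.05 (limma, 11.9% of all genes, 0% adjusted), MPTP + EX and MPTP mice had Gabrd (5.78%, 0.0154% adjusted), and MPTP + EX and saline mice had Gabra6 and Gabrd (16.9%, 0% adjusted). Gabrd was at 85.7, 99.4, 96.6 and 97.7 FPKM in MPTP + EX mice and at 80.3, 86.3, 81.8 and 79.5 FPKM in MPTP mice, against 96.0, 82.4, 77.2 and 80.1 FPKM in saline mice. The log2 difference was 0.21 for MPTP + EX against MPTP (SE 0.066, adjusted p = 0.741) and 0.18 against saline (adjusted p = 0.221). In MPTP + EX mouse E26 and saline mouse S1 the level overlapped with the other groups.

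Gabra6, its partner in granule cells, was at 204, 233, 231 and 241 FPKM in MPTP + EX mice and at 203, 206, 209.9 and 217 FPKM in MPTP mice, against 238, 176, 190.2 and 181 FPKM in saline mice. The difference was 0.22 for MPTP + EX against saline (SE 0.082, adjusted p = 0.225). It passed only when the highest saline mouse, S1, was left out (0.31, adjusted p = 0.0474). The granule cell markers overlapped, with 1304 to 1577 FPKM in MPTP + EX mice and 1390 to 1552 FPKM in saline mice.

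The low cerebellar subunits Gabra3 and Gabra5 moved with cell type markers between mice. Gabra5 was at 2.56, 0.27, 1.38 and 0.54 FPKM in MPTP + EX mice and at 1.79, 1.69, 1.92 and 1.23 FPKM in MPTP mice, against 0.205, 3.44, 2.43 and 2.48 FPKM in saline mice. It went with the Purkinje cell markers at r = -0.860 and rho = -0.916 across 12 libraries (permutation p = 0.00044 and 4e-05, adjusted p = 0.0153 and 0.00464, r = -0.949 without the 2 farthest). Gabra3 went with the granule cell markers at r = -0.902 and rho = -0.874 (permutation p = 8e-05 and 0.00042, adjusted p = 0.00696 and 0.0365, r = -0.824). For the markers of cortical and hippocampal excitatory neurons the values did not pass adjustment, with r = 0.654 and rho = 0.713 for Gabra5 (permutation p = 0.01126 and 0.01214, adjusted p = 0.0816 and 0.108, r = 0.822) and r = 0.581 and rho = 0.608 for Gabra3 (permutation p = 0.0267 and 0.0399, adjusted p = 0.138 and 0.204, r = 0.708). Saline mouse S2, highest in both subunits, had a mean log2 level of 4.22 in these excitatory markers, against 2.22 to 3.06 in the other 11 cerebellum libraries. MPTP + EX mouse E27 and saline mouse S1 were low in both subunits and lowest in this mean (2.22 and 2.33), and the part of such cells was not tested. Gabra5 of MPTP + EX against saline differed by -0.49 with an SE of 0.37 (adjusted p = 0.511), and by -0.27 without saline mouse S2. Over the 4 regions, 348 such relations were computed, of which 26 passed an adjusted p under 0.05 by Pearson, 13 by Spearman and 10 by both.

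Whether a response differed between regions was tested over 47 libraries as the response in 1 region minus the mean response in the other 3. No subunit passed adjustment for MPTP against saline or for MPTP + EX against MPTP. For MPTP against saline the background was 1.01% of all genes for the SN, 0.0373% for the striatum, 0.00746% for the cortex and 0.00746% for the cerebellum. For MPTP + EX against MPTP it was 0.328% for the SN and 0% for the striatum, cortex and cerebellum. At an unadjusted p under 0.05 stood Gabrd in the SN for MPTP against saline (difference 0.88, SE 0.42, adjusted p = 0.376, 12.4% of all genes) and Gabrg3 in the cortex (0.40, SE 0.19, adjusted p = 0.384, 12.1%). The cortex responses of Gabra3 and Gabra5 exceeded those elsewhere by 0.37 each (SE 0.19 and 0.36, adjusted p = 0.421 and 0.705). Hence the cortex differences are not shown to be particular to the cortex.

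The rest of the GABA system was read from 4 gene lists with 51 of 53 genes in the table. Of the other 11 GABA-A and GABA-rho subunits, Gabrp, Gabrr1, Gabrr3 and Gabre were at or under 0.726 FPKM in each of the 47 libraries. Gabrq, the theta subunit gene next to Gabra3, was at 0.712 to 2.1 FPKM in the SN, and in MPTP mice averaged 0.9897 ± 0.24 FPKM, against 1.67 ± 0.20 FPKM in saline mice, without overlap (-0.43, SE 0.14, limma, adjusted p = 0.244). None of these subunits passed adjustment in the 12 comparisons of groups.

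Of the 9 genes of GABA synthesis, transport and breakdown none passed adjustment in any of the 12 comparisons. In the SN, Gad1, which makes GABA, averaged 259.9 ± 15.9 FPKM in MPTP mice and 202 ± 31.0 FPKM in saline mice (0.37, adjusted p = 0.2499). In the cortex, Slc32a1, the vesicular GABA transporter, averaged 40.9 ± 2.57 FPKM in MPTP mice and 49.0 ± 3.12 FPKM in saline mice (-0.25, adjusted p = 0.109), opposite in sign to Gabra3, Gabra4 and Gabra5 there (SD, n = 4 each, limma). Of the 8 genes of this list tested in the cortex, 2 had higher and 6 lower means in MPTP mice (median -0.08). None of 24 genes of receptor anchoring, trafficking and modulation passed adjustment, and in the cortex 13 had higher and 11 lower means in MPTP than in saline mice. Gphn, the gephyrin scaffold of inhibitory synapses, differed by 0.20 between MPTP and saline mice in the SN (adjusted p = 0.251).

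Of the 7 genes for GABA-B receptors and chloride transporters, 1 passed in 1 comparison, MPTP + EX against saline in the SN (1.02% of all genes). Slc12a2, the chloride importer NKCC1, rose in the SN of MPTP + EX mice to 39.3 ± 3.31 FPKM, against 28.6 ± 1.21 FPKM in saline mice (SD, n = 4 each), by 0.44 on the log2 scale (SE 0.072, limma, adjusted p = 0.0117) and without overlap. In MPTP mice it averaged 33.6 ± 2.90 FPKM (0.22 against saline, adjusted p = 0.243). Gabbr1, a GABA-B receptor subunit, averaged 157 ± 8.61 FPKM in the SN of MPTP mice and 186 ± 11.1 FPKM in saline mice (-0.24, adjusted p = 0.235), and Slc12a5, the chloride exporter KCC2, differed by -0.19 between MPTP + EX and saline mice in the cerebellum (adjusted p = 0.146). Oligodendrocyte markers, whose cells can also express Slc12a2, summed to 6299.5 to 9331 FPKM in the SN of MPTP + EX mice, against 4953 to 6312 FPKM in saline mice, and their part in the Slc12a2 values was not tested.

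The genes with the most similar pattern over the 47 libraries, among 13402 genes, are given by Pearson's r as a description, since the libraries of 1 region share its cell types and lie together. Gabra6 was closest to Cbln3 (r = 0.997), Ppp1r17 (0.996) and Car8 (0.993), Gabra4 to Lmo7 (0.981), Fkbp1a (0.977) and Actn1 (0.977), and Gabra5 to Cpne6 (0.977), Crtac1 (0.972) and Pam (0.968). Gabra3 was closest to Cmip (0.976), Pcdh7 (0.974) and Creg2 (0.974), and Gabrd to Nab2 (0.952), Zfyve28 (0.951) and Camk4 (0.948). Gabrg3 was closest to Prkar2b (0.966), Susd1 (0.965) and Jakmip1 (0.965), Gabrg1 to Serpine2 (0.966), Ano4 (0.956) and Cyp2j6 (0.955), and Gabra2 to Crym (0.909), Kcng1 (0.904) and Cdh9 (0.897). Among the subunits themselves Gabra3 and Gabra5 were most alike (0.938) and Gabra6 and Gabrg3 most opposed (-0.884).

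Several subunit genes lie side by side in the mouse genome: Gabra2 by Gabrg1, Gabra4 by Gabrb1, Gabra5 by Gabrg3, and Gabra6 by Gabrb2, by the RefSeq gene table. Neighbours did not always share their regional pattern. Gabra2 was lower in the cerebellum than in all other regions of saline mice, while Gabrg1 was highest in the SN, and over the 47 libraries their correlation was 0.422.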

How the data were processed

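RNA was extracted with TRIzol from micro-dissected SN, striatum, cortex and cerebellum (the extraction text in the labels speaks of cultured cells) and sequenced as 1 library per mouse and region. The authors deposited FPKM per gene name and library, on mouse build mm9. Their methods name Tophat2, Cuffquant and RSEM, while the submitters' processing notes name HISAT2 2.1 and HTSeq 0.11, and the sources used here do not say which of these made the values. No counts were used, so the depth of each library is unknown and no counting error is given. Closely related or overlapping genes could share fragments in ways that FPKM does not show.

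The members and gene lists were chosen with earlier results of these data known. Of 23366 gene names, 27 turned into dates by a spreadsheet were left out (0.209% to 0.329% of the FPKM of a library). Mice were read from the column names, since the replicate numbers of the labels are not in them, and the labels name no batch. Values were tested as log2(FPKM + 1) with limma 3.58.1 in R 4.3.3 (moderated test with an intensity trend, two-sided, Benjamini-Hochberg over all genes with a mean above 1 FPKM), in 1 fit of 3 groups per region, 1 fit of the 16 saline libraries and 1 fit of 47 libraries for response differences. The striatum library of mouse E29 was left out. The scripts were tested on simulated data. Relations with marker lists (mean log2 over a list) used 100000 permutations, two-sided, in scipy 1.17.1. The genes named were the 8 members, the 3 genes most correlated with each, other GABA-A subunits and up to 3 genes of lowest p per list and comparison. Cbln3, Fat2 and Malat1 were added. Some genes of the lists are counted but not reported here. Alternatives were a pseudocount of 0.1, no filter, libraries scaled to a common median, fits of 2 groups, the E29 library put back, the mouse as a block, each library left out, and marker scores as covariates (added after the data were seen). No sequences are given. RefSeq gene order is from GRCm38.p6.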

Additional observations from a re-analysis of the deposited data

Results flagged for a closer look

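Within groups of 4 mice, 5 of 96 sets of values had 1 mouse whose gap to its nearest neighbour took an unusually large part of the whole range, and chance gives about 1 in 20 such sets. Gabra4 was at 5.09 FPKM in the SN of MPTP mouse M21, against 8.23 to 8.85 FPKM in the other MPTP mice. Gabrd was at 11.0 FPKM in the SN of MPTP + EX mouse E27, against 2.86 to 3.75 FPKM. Gabra6 was at 0.689 FPKM in the striatum of MPTP + EX mouse E28, against 0 to 0.113 FPKM, where the 0 is the E29 library. In the cortex of saline mouse S2 Gabra6 was at 1.21 FPKM, against 0.0497 to 0.115 FPKM. Gabrd was at 180.5 FPKM in the striatum of MPTP + EX mouse E29, against 48.6 to 56.0 FPKM, in the library that stood apart as a whole.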

How the results depend on the processing

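No paired analysis was possible because the MPTP + EX, MPTP and saline groups hold different mice, for the comparisons of groups. Region pairs share mice, and with the mouse as a replicate block the calls among 8 subunits were 6 (SN against striatum), 5 (SN against cortex), 7 (SN against cerebellum), 4 (striatum against cortex), 7 (cerebellum against cortex) and 7 (cerebellum against striatum), equal in number to those without it, and 0 for each of the 8 response differences. Deviations of the same saline mouse correlated at -0.202 to 0.282 (median 0.0849, 24 pairs, 10 over 0.1). Those of different mice correlated at -0.393 to 0.307 (median -0.0437, 72 pairs, 10 over 0.1).

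In cortex, MPTP against saline had 0 calls, and 3 in a fit of 2 groups (0 to 2 with a library left out). MPTP + EX against saline had 0 to 3 calls in cortex and 0 to 1 in cerebellum with a library left out. The share of all genes called under these settings is not given. The other comparisons of groups and response differences stayed at 0 under each setting run, and region pairs moved by at most 1 call with a library left out. With the E29 library put back, MPTP + EX against MPTP in striatum became -0.96 (Gabra2), -0.07 (Gabra3), -0.44 (Gabra4), -0.07 (Gabra5), 0.28 (Gabrd) and -0.54 (Gabrg3), and against saline -0.94 (Gabra2), -0.27 (Gabra3), -0.37 (Gabra4), -0.16 (Gabra5), 0.31 (Gabrd), -0.35 (Gabrg1) and -0.53 (Gabrg3). The response differences of MPTP + EX against MPTP became 0.08 (Gabra2) and 0.11 (Gabrg3) in SN, -0.87 (Gabra2), -0.04 (Gabra3), -0.32 (Gabra4) and -0.46 (Gabrg3) in striatum, 0.04 (Gabrg3) in cortex and 0.23 (Gabra2) in cerebellum. None was called, and that library is the only change in this setting.

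With marker scores as covariates in SN, MPTP against saline became -0.32 (Gabra6, granule cells) and -0.41 (Gabra5, excitatory neurons), and MPTP + EX against MPTP 0.07 (Gabra2), 0.15 (Gabra4) and 0.42 (Gabra5, excitatory neurons). Leaving out 1 library gave -0.01 to 0.17 for Gabra3 in SN (MPTP + EX against MPTP), -0.09 to 0.09 (against saline), and for the Gabra6 response difference in SN -0.04 to 1.49 (MPTP against saline) and -0.83 to 0.70 (MPTP + EX against MPTP). The cause of these changes was not tested. With 4 mice per group and unknown depth, small differences and levels near 0 were not resolved.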
